A study of Homo sapiens with 52 samples.

Results

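The BCL2 family sets whether the outer membrane of the mitochondrion stays closed, and 10 of its genes were followed by name through the transcriptome of WI-38 cells on the way to senescence. They are the survival genes BCL2, BCL2L1, BCL2L2, MCL1 and BCL2A1, the BH3-only genes BCL2L11, BMF, BIK and BID, and the effector gene BAK1. The tables list 59408 genes, of which 15796 had enough reads to be tested. Among these were 8 of the 10 family genes, BCL2A1 and BIK being too low.

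WI-38, an established fibroblast line from human lung, stops dividing after a limited number of passages, and all groups were wild type. Cultures were left untreated (population doubling level 32 to 46), were treated for 24 h with 0.009% SDS (PMD-Sen), 75 mM KCl (Ca2+-Sen) or 250 nM doxorubicin (DXR; DDR-Sen), or were passaged to replicative senescence at level 52 (RS). SDS is a detergent that wounds the plasma membrane, KCl was used to let Ca2+ in, and DXR breaks DNA. RNA was sequenced on each of days 0 to 4 and on days 6, 8 and 16 after each treatment, with 2 libraries in each of 26 groups. The libraries held 15.3 to 55.5 M counted reads (median 28.9 M), and the untreated pair was at the shallow end, with 15.3 and 19.0 M. All values come from 1 cell line, and the pair of a group is described in the methods of the study as independent samples. Whether they were separate cultures is not said there or in the labels, and p-values measure the spread between such samples.

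Survival proteins of the family hold the effectors BAX and BAK in check. BH3-only proteins answer to stress, bind the survival proteins or the effectors, and so favor pores in the mitochondrial membrane, through which cytochrome c leaves and caspases are switched on. Senescent fibroblasts are known for resisting apoptosis, and drugs that block BCL2, BCL-xL (the product of BCL2L1) and BCL-w (BCL2L2) are used to kill them.

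Levels are given as counts-per-million values (CPM), with all libraries brought to a common scale. The pair of each group is given in the order smaller library, larger library. A difference is one between group means fitted by limma on the log2 scale, with its standard error (SE), and need not equal the log2 ratio of mean CPM. A gene was called at a Benjamini-Hochberg adjusted p under 0.05 from limma, adjusted over all 15796 genes. In RNA from whole cultures, a change in all cells and a change in the make-up of the culture cannot be told apart.

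The labels were checked first. MKI67, a proliferation marker, stood at 155 and 197 CPM in untreated cells, at 1.21 and 6.48 in RS and at 3.4 and 3.07 on day 0 of DDR-Sen. It was at 18.6 and 24.8 CPM on day 8 of Ca2+-Sen and at 89.2 and 76.3 on day 16, so that the last Ca2+-Sen day lay nearer to untreated cells than the sampled day before it. CD14, a leukocyte marker listed below, had group means of 8.92 CPM on day 8 of Ca2+-Sen and 2.31 on day 16. Its means on these days were 1.66 and 8.4 in PMD-Sen and 3.96 and 8.06 in DDR-Sen. The share of all genes called against untreated cells was 37.7% on day 8 and 12.4% on day 16 of Ca2+-Sen. It was 22.1% and 38.9% in PMD-Sen and 30.8% and 42.0% in DDR-Sen. Whether the order of these values goes against the labels of these days was not tested. The values of both days are given under the labels as they stand. Without both days, 47 of the 53 calls against untreated cells described below and 28 of the 39 between inducers are counted. Day 16 of Ca2+-Sen also gave 4 of the 30 calls over days and 4 of the 7 against RS. CDKN1A, which encodes the cell cycle inhibitor p21, had a group mean of 872 CPM in untreated cells, 1360 in RS and 3710 on day 0 of DDR-Sen. Fibroblast markers summed to between 17700 and 42500 CPM over the groups. Leukocyte markers summed to 0.546 to 9.05 CPM, with CD14 as the most abundant, and endothelial markers to 1.15 to 7.63. The epithelial list reached 87.4 to 189 CPM through KRT8, KRT18 and KRT19, while EPCAM was never above 0.767 CPM in a library and CDH1 never above 0.53. The smooth muscle list reached 142 to 782 CPM through ACTA2 and CNN1, with MYH11 at 0.132 CPM at most. Every pair of libraries differed by more than counting noise. The RS pair stood apart most, with a mean chi-square of 180 per gene against 30.3 in the next pair, on day 6 of Ca2+-Sen.

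In untreated cells the family spanned a wide range of levels per length. Divided by the length of its exons, MCL1 stood highest at 77.7 CPM per kb, followed by BCL2L1 at 30.5, BCL2L2 at 17.3, BAK1 at 14.8 and BID at 13.3. In GRCh38, MCL1 lies at chr1:150574551-150579738, BCL2L1 at chr20:31664452-31723989, BCL2L2 at chr14:23298790-23311759, BAK1 at chr6:33572547-33580293 and BID at chr22:17734138-17774770. The pairs of these 5 genes did not overlap each other. BCL2 stood at 0.39 CPM per kb, with libraries at 0.369 and 0.411, and BMF at 0.38, with 0.435 and 0.326, so that their order was not resolved. BCL2L11 followed at 0.151, BIK at 0.147 and BCL2A1 at 0.11, and the libraries of BCL2L11 fell between those of BIK at 0.069 and 0.226. MCL1 and BCL2L1, and not BCL2, thus led the survival genes in these cells.

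BMF and BCL2L11 showed the largest differences from untreated cells in the family, and their promoters are shown for that reason. The sequences, from RefSeq (GRCh38.p14), run from 250 bases before to 50 bases after the annotated start, at chr2:111120664-111120963 on the plus strand for BCL2L11 and at chr15:40108830-40109129 on the minus strand for the upstream start of BMF. Capitals mark the motifs GTAAACA (FOXO factors) and GGGCGG (GC box), searched on both strands.
BCL2L11: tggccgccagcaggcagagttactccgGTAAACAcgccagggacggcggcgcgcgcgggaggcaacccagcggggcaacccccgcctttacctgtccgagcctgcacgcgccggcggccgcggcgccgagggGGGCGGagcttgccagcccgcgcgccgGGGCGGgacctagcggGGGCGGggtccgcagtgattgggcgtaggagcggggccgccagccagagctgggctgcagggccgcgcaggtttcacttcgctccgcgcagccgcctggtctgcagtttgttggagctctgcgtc
BMF: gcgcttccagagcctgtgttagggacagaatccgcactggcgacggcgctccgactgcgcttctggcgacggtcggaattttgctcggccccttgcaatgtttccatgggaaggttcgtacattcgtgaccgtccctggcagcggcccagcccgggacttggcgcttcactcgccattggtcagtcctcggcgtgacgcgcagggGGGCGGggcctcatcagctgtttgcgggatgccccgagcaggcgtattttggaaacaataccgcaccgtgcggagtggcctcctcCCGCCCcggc
The BCL2L11 promoter held 1 FOXO motif, which occurs in 3.42% of all 35116 promoters of this length, and 3 GC boxes, which occur in 45.0%. The BMF promoter held 2 GC boxes, and neither held TGANTCA (AP-1, in 7.71% of all), TGATGNAA (ATF4, 3.62%) or CACGTG (E-box, 7.26%). Another listed start of BMF held none of the 5. A match is a run of letters and was not tested as a binding site. BCL2L11 itself spans chr2:111119378-111168447 and BMF chr15:40087890-40108892. The BCL2 promoter, at chr18:63319720-63320019 on the minus strand, held none of the 5 motifs, in a gene that spans chr18:63123346-63320128. RefSeq promoters were found for 7 of the 10 genes, MCL1, BCL2L2 and BIK being the others.

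Against untreated cells, 53 of 200 gene and group pairs were called (26.5%). The mean share of all tested genes called over the same 25 comparisons was 25.8%, close to the share of the family. Under limma-trend, which models the spread by mean level without weights per count, 75 of the 200 were called, while the median number of genes called over all 58 contrasts went from 3482.5 to 3681.5. With the spread from the compared groups only, 63 were called and the median was 2685. In RS, 4 of 8 members were called, against 45.2% of all genes. In PMD-Sen, taken in the order of the 8 days, the members called numbered 4, 1, 1, 2, 2, 2, 1 and 2, and the shares of all genes were 49.1%, 24.4%, 17.1%, 15.4%, 19.7%, 24.2%, 22.1% and 38.9%. In Ca2+-Sen they numbered 5, 1, 1, 1, 2, 1, 5 and 1, against 56.1%, 12.6%, 3.31%, 11.1%, 15.1%, 21.5%, 37.7% and 12.4%. In DDR-Sen they numbered 5, 2, 1, 1, 2, 3, 1 and 2, against 37.4%, 25.4%, 15.3%, 17.2%, 21.4%, 30.5%, 30.8% and 42.0%. The members that differed, and their direction, changed with the inducer and the day. All 25 comparisons share the untreated pair. Without its larger library 31 of the 53 calls were lost, 22 remained and 2 others were made, while leaving out its smaller library lost 11. Of the 53, 19 held in every setting, which here and below means the other scalings and filters, limma-trend, a spread from the compared groups only and leaving out each library of the comparison in turn. On day 1 of DDR-Sen only the group mean is known of BCL2L1, BCL2L2 and BID, and of BAX, BBC3 and PMAIP1 described further below, so that the libraries of that day could not be left out for these genes.

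**Figure D1:**
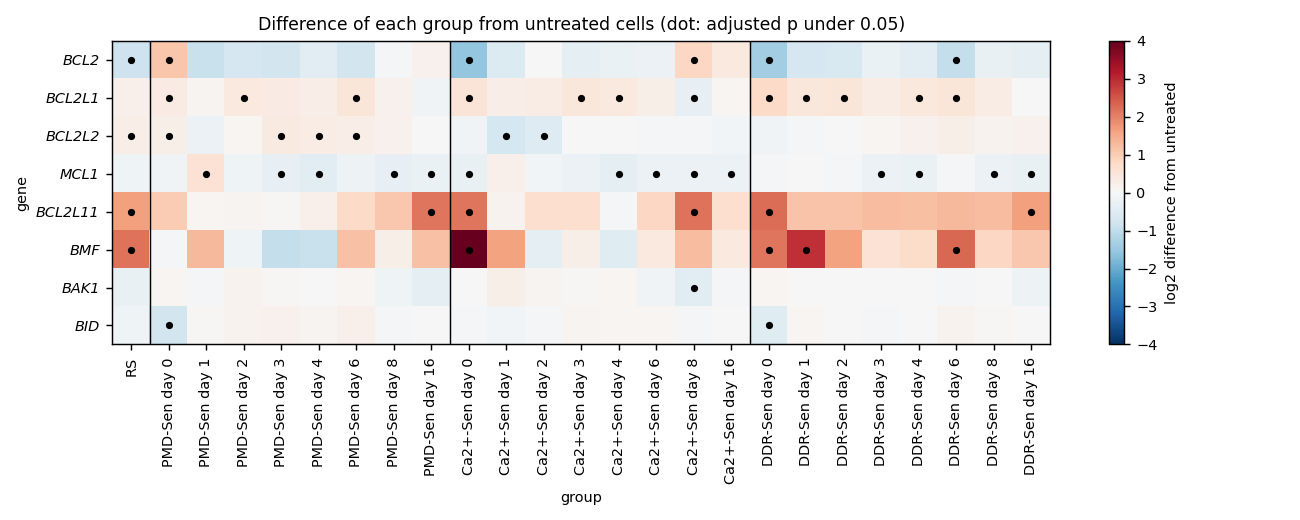
Log2 difference of each group from untreated cells (color, from -4 to 4) for the 8 tested family genes (vertical axis) in the 25 groups (horizontal axis), with a dot where the adjusted p was under 0.05. BMF on day 0 of Ca2+-Sen is the darkest cell at 3.97, BCL2 is red on day 0 of PMD-Sen and blue on day 0 of Ca2+-Sen and DDR-Sen, and BAK1 and BID are pale in nearly all groups.

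BCL2, the founding survival gene, was higher than in untreated cells on day 0 after SDS and lower on day 0 after KCl or DXR. It stood at 4.34 and 4.84 CPM in untreated cells. On day 0 it was at 8.49 and 11.4 CPM in PMD-Sen, at 2.34 and 1.22 in Ca2+-Sen and at 1.67 and 1.83 in DDR-Sen, so that the 3 inducers did not overlap untreated cells and PMD-Sen lay on the other side. The rise in PMD-Sen was 1.10 (SE 0.28, adjusted p = 0.00181), or 2.14-fold. BCL2 fell by 1.39 (SE 0.33, adjusted p = 0.00115) in DDR-Sen and by 1.56 (SE 0.35, adjusted p = 0.000284) in Ca2+-Sen. Without the larger Ca2+-Sen library of day 0, the latter fall was 0.98 with an adjusted p of 0.0511.

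The later course of BCL2 differed as well. On day 1 of PMD-Sen BCL2 was at 2.25 and 2.6 CPM, both below the untreated pair, but the difference of -0.90 was not called (adjusted p = 0.0572). The later call in DDR-Sen was day 6, at 2.15 and 2.62 CPM, a fall of 0.94 (SE 0.35, adjusted p = 0.0426) that was lost in 6 of 11 settings. On day 8 of Ca2+-Sen it reached 8.39 and 8.16 CPM, a rise of 0.84 (SE 0.28, adjusted p = 0.0175), which had an adjusted p of 0.11 without the smaller untreated library, 0.0826 without the larger one and 0.0503 without the smaller library of that day. RS held 2.52 and 2.63 CPM, a fall of 0.84 (SE 0.31, adjusted p = 0.0261). Leaving out any of the 4 libraries of that comparison gave an adjusted p between 0.0598 and 0.172. The pair of day 16 of PMD-Sen spread widely, at 7.19 and 3.94 CPM, on either side of untreated cells.

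BCL2L1, which encodes BCL-xL, was the survival gene most often called higher, with 11 rises and 1 fall in 25 comparisons. Untreated cells held 104 and 98.1 CPM. Day 0 stood at 127 and 130 CPM in PMD-Sen, 144 and 146 in Ca2+-Sen and 166 and 177 in DDR-Sen, each pair above the untreated one. The rise was 0.76 (SE 0.11, adjusted p = 2.23e-06) in DDR-Sen and 0.53 (SE 0.11, adjusted p = 0.000226) in Ca2+-Sen. In PMD-Sen it was 0.34 (SE 0.12, adjusted p = 0.0151), with an adjusted p of 0.109 without the larger untreated library and 0.0731 without the larger PMD-Sen library. By day 16 the gene was near its starting level, at 87.7 and 97.2 CPM in PMD-Sen, 106 and 108 in Ca2+-Sen and 105 and 99.7 in DDR-Sen, and none of these passed the test. The 3 calls that held in every setting were those of day 0 of Ca2+-Sen and days 0 and 6 of DDR-Sen.

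BCL2L2, which encodes BCL-w, dipped after KCl. Untreated cells held 79.7 and 65.6 CPM, and Ca2+-Sen held 42.8 and 46 on day 1 and 47.7 and 52.6 on day 2. These were the lowest groups of the series for this gene. The fall was 0.69 (SE 0.10, adjusted p = 2.81e-05) on day 1 and 0.52 (SE 0.10, adjusted p = 0.00263) on day 2, the latter with an adjusted p of 0.0948 without the smaller untreated library. Of the 5 rises called, in RS and on days 0, 3, 4 and 6 of PMD-Sen, the largest was 0.36 (SE 0.09, adjusted p = 0.00805). It was 0.22, with an adjusted p of 0.282, without the larger untreated library. The other 4 were lost without that library too, and each of the 5 was lost without 1 library of its own group.

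MCL1, a short-lived survival protein whose RNA is quickly made and lost, was highest on day 1 after SDS. It stood at 330 and 349 CPM in untreated cells and at 579 and 456 on day 1 of PMD-Sen, the highest pair of all groups. The rise was 0.58 (SE 0.08, adjusted p = 2.89e-06). On the same day it stood at 388 and 384 CPM in Ca2+-Sen and at 350 and 341 in DDR-Sen, neither of which was called. In 13 other groups MCL1 was lower than in untreated cells, at most by 0.41 (SE 0.08, adjusted p = 0.000403), at 250 and 260 CPM in PMD-Sen on day 4. The falls were small, and 4 of the 13 held in every setting, those on day 4 of PMD-Sen, days 0 and 4 of Ca2+-Sen and day 16 of DDR-Sen.

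BCL2A1, an NF-kB target best known from blood cells, was close to absent. Its 157 reads were spread over 52 libraries, 11 of them at 0. The highest counts were 18 and 13 reads, the pair of day 1 of PMD-Sen, at 0.919 and 0.356 CPM, and 14 libraries had more than 3 reads. Untreated cells had 2 reads in each library. A count of 0 allows up to 3 reads, or 0.0533 to 0.197 CPM depending on the library, and these limits cover counting error only.

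**Figure D2:**
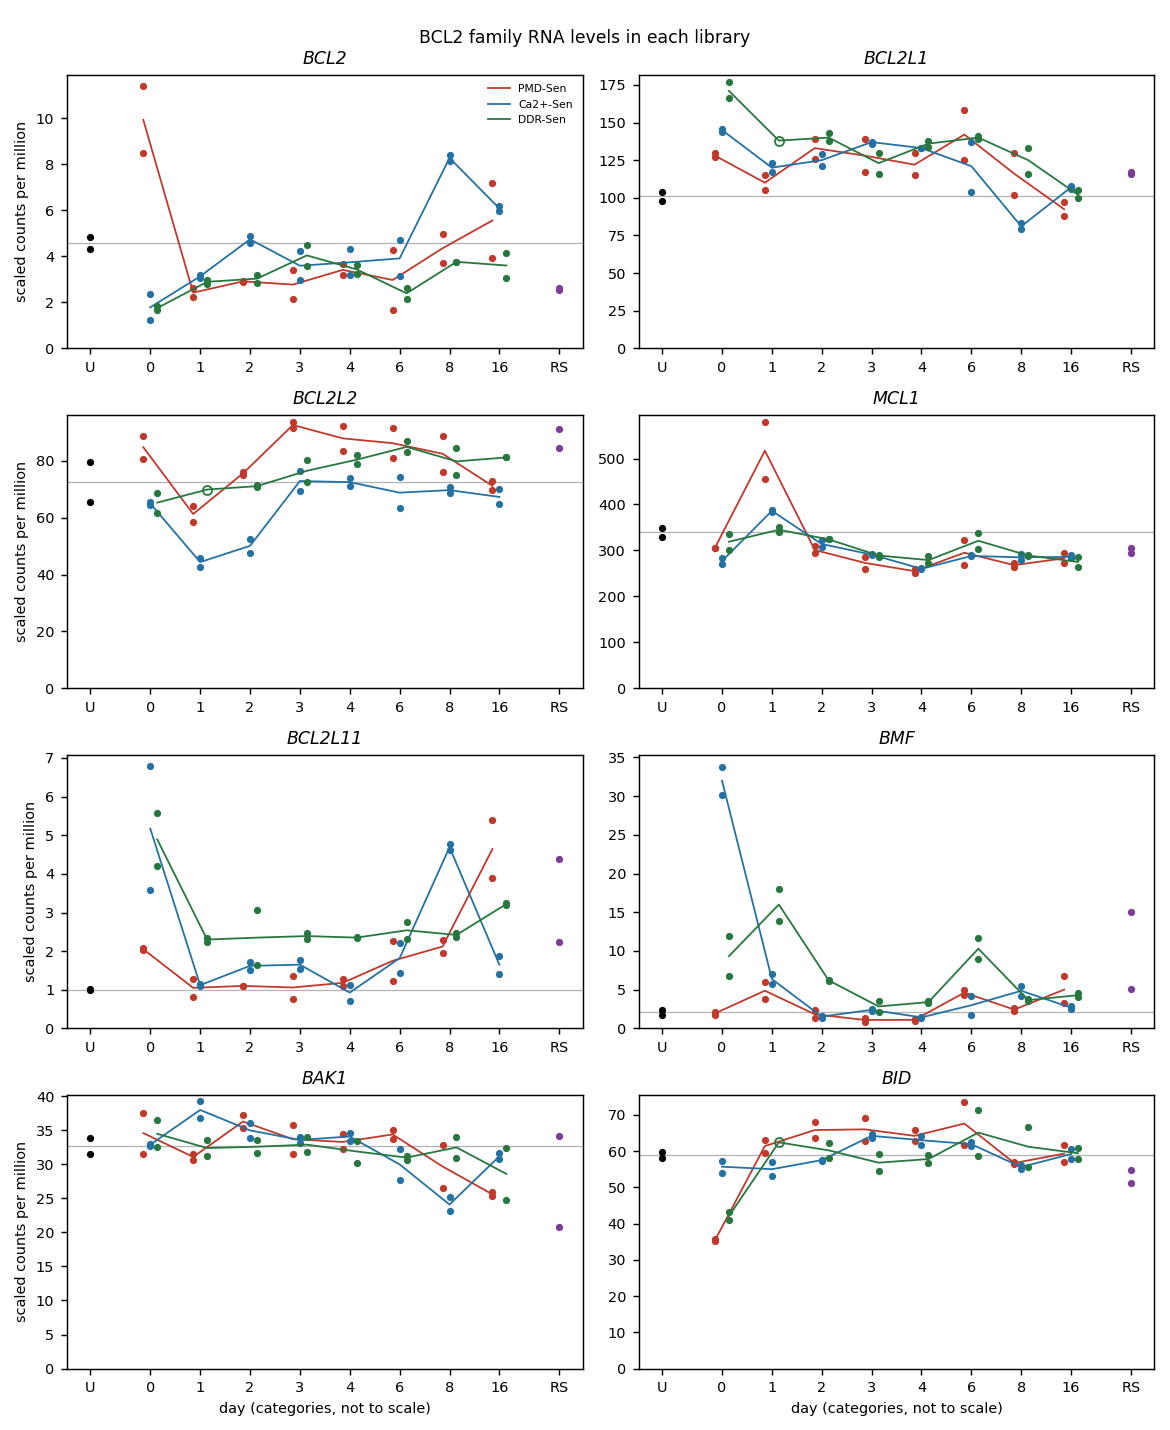
Levels in CPM of the 8 tested family genes in each library (points) for untreated cells (U), the sampled days of PMD-Sen, Ca2+-Sen and DDR-Sen and RS, with lines through the group means, the untreated mean in gray and an open circle where only the group mean is known. BCL2 is high on day 0 of PMD-Sen at 8.49 and 11.4, BMF on day 0 of Ca2+-Sen at 30.2 and 33.7, and BID is low on day 0 of PMD-Sen at 35.8 and 35.1.

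BCL2L11 encodes BIM, a BH3-only protein that binds all survival members. Its RNA was near 1 CPM in untreated cells, at 0.987 and 1.02, and rose in 6 groups without a fall in any. On day 0 it stood at 6.78 and 3.57 CPM in Ca2+-Sen and at 5.57 and 4.21 in DDR-Sen, but at 2.08 and 2.03 in PMD-Sen. Some late groups were also high, with 4.76 and 4.61 CPM on day 8 of Ca2+-Sen, 5.4 and 3.88 on day 16 of PMD-Sen, 3.25 and 3.19 on day 16 of DDR-Sen and 2.24 and 4.39 in RS. Each of these pairs lay above the untreated pair. Day 16 of Ca2+-Sen, at 1.87 and 1.42 CPM, was not called (0.67, adjusted p = 0.475), nor was day 8 of PMD-Sen (adjusted p = 0.128) or DDR-Sen (adjusted p = 0.0656). The rises were 2.22 (SE 0.47, adjusted p = 0.000335) on day 0 of DDR-Sen, 2.14 (SE 0.47, adjusted p = 0.000282) on day 0 of Ca2+-Sen, 2.18 (SE 0.48, adjusted p = 0.000552) on day 8 of Ca2+-Sen and 2.14 (SE 0.48, adjusted p = 0.000689) on day 16 of PMD-Sen. These 4 held in every setting, while the rise in RS was lost in 3 of 10 settings. The rise of 1.64 (SE 0.49, adjusted p = 0.00782) on day 16 of DDR-Sen had adjusted p of 0.0541 and 0.0719 without the smaller and the larger untreated library. That of 1.65 (SE 0.48, adjusted p = 0.00535) in RS was 1.12, with an adjusted p of 0.0576, without the larger RS library, and had an adjusted p of 0.0628 without the larger untreated library.

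BMF, whose protein is held at the cytoskeleton until it is released, showed the largest change of the family. Untreated cells held 2.37 and 1.77 CPM, and day 0 of Ca2+-Sen held 30.2 and 33.7, a rise of 3.97 (SE 0.59, adjusted p = 1.14e-06) or 15.6-fold. On day 0 of PMD-Sen the level was 2.12 and 1.78 CPM, overlapping untreated cells. In DDR-Sen it was 6.78 and 11.9 CPM on day 0, 18 and 13.9 on day 1 and 11.7 and 8.94 on day 6, all above untreated cells. The rise on day 1 was 2.91 (SE 0.60, adjusted p = 0.000472). Those on day 0, 2.15 (SE 0.61, adjusted p = 0.00548), and day 6, 2.30 (SE 0.62, adjusted p = 0.00487), had adjusted p of 0.0898 and 0.0842 without the larger untreated library. The RS pair spread widely at 5.13 and 15 CPM, with a rise of 2.16 (SE 0.61, adjusted p = 0.0042), and an adjusted p of 0.0744 without the larger untreated library. It was 1.32, and still called, without the larger RS library, and had an adjusted p of 0.194 with the spread taken from the compared groups only.

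BID, which links death receptors to mitochondria once caspase-8 has cut it, was steady except on day 0. It stood at 58.2 and 59.8 CPM in untreated cells, at 35.8 and 35.1 on day 0 of PMD-Sen and at 41.1 and 43.2 on day 0 of DDR-Sen, well below. The falls were 0.74 (SE 0.10, adjusted p = 1.49e-07) and 0.49 (SE 0.09, adjusted p = 4.79e-05), and both held in every setting. In the other 23 groups the difference was not called and lay between -0.16 and 0.19. BIK, another BH3-only gene, had 152 reads in the 52 libraries, 10 at most in 1 library, and 5 libraries at 0.

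BAK1, the effector, was the steadiest member. It stood at 33.9 and 31.5 CPM in untreated cells, and its group means ran from 24.1 to 38.0 CPM. The only call against untreated cells was day 8 of Ca2+-Sen, with 25.2 and 23.1 CPM, a fall of 0.44 (SE 0.16, adjusted p = 0.0279). This was lost without the smaller untreated library (adjusted p = 0.153), the larger untreated library (0.0679) or the larger library of that day (0.143). The RS pair, at 34.2 and 20.8 CPM, fell on both sides of the untreated level.

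Members and all genes alike had their most calls between inducers on day 0. Differences between inducers on the same day do not use the untreated libraries, although their SE takes in the spread of all groups, untreated cells included. Of their 192 gene and group pairs, 39 were called (20.3%, with a mean share of all genes of 17.8%). On day 0 the members called were 6 of 8 between PMD-Sen and DDR-Sen, 5 between PMD-Sen and Ca2+-Sen and 4 between Ca2+-Sen and DDR-Sen, where 56.6%, 63.5% and 65.0% of all genes were called. On day 1 they were 3, 2 and 2, against 34.4%, 18.3% and 26.3%. On day 2 they were 1, 1 and 2, against 24.2%, 12.6% and 9.19%.

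On days 3 and 4 no member was called in any contrast, where 6.5%, 0.108% and 4.32% of all genes were called on day 3 and 1.0%, 0.00633% and 2.77% on day 4. Without adjustment, 4, 1 and 1 members had a limma p under 0.05 on day 3 and 2, 1 and 1 on day 4, and limma-trend called 2, 0 and 0 on day 3 and 1, 0 and 1 on day 4. On day 6 the counts were 0, 0 and 2, against 0.424%, 0.0886% and 3.86%, on day 8 they were 0, 3 and 4, against 1.75%, 18.6% and 22.0%, and on day 16 they were 0, 1 and 3, against 5.09%, 23.0% and 27.6%. In the comparisons of PMD-Sen with DDR-Sen on days 6, 8 and 16, none of which called a member, 1, 0 and 2 members had an unadjusted limma p under 0.05 and limma-trend called 0. Between PMD-Sen and Ca2+-Sen on day 6, with 0 calls, the unadjusted count was 2 and limma-trend called 0.

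The widest gaps on day 0 were those of BCL2 and BMF. BCL2 was higher in PMD-Sen than in DDR-Sen by 2.49 (SE 0.28, adjusted p = 4.39e-09) and than in Ca2+-Sen by 2.66 (SE 0.29, adjusted p = 2.56e-09). The latter difference ran from 2.07 to 3.01 over the settings. BMF was lower in PMD-Sen than in Ca2+-Sen, with a log2 difference of -4.04 (SE 0.53, adjusted p = 9.04e-08), and lower than in DDR-Sen, with -2.22 (SE 0.55, adjusted p = 0.000978). BCL2L11 was lower in PMD-Sen as well, with -1.14 (SE 0.33, adjusted p = 0.00375) against Ca2+-Sen and -1.22 (SE 0.33, adjusted p = 0.00228) against DDR-Sen. PMD-Sen thus stood apart from both other inducers by more BCL2 RNA and less RNA of BMF and BCL2L11, and these 6 differences held in every setting. PMAIP1, a further BH3-only gene described below, went the other way, 1.33 (SE 0.15) above DDR-Sen and 0.86 (SE 0.15) above Ca2+-Sen. BCL2L2 was higher in PMD-Sen than in each of the others by 0.38 (SE 0.09). BCL2L1 was lower than in DDR-Sen, with -0.42 (SE 0.11), and these calls held in every setting too. BID was lower in PMD-Sen than in Ca2+-Sen by a log2 difference of -0.65 (SE 0.09, adjusted p = 2.5e-07). MCL1 on day 1 was higher in PMD-Sen than in DDR-Sen by 0.56 (SE 0.08, adjusted p = 6.96e-07) and than in Ca2+-Sen by 0.40 (SE 0.08, adjusted p = 0.000362), the latter 0.24 with an adjusted p of 0.0395 without the smaller PMD-Sen library. BCL2L2 was lower in Ca2+-Sen than in DDR-Sen by -0.65 (SE 0.09, adjusted p = 3.66e-06) on day 1, where the DDR-Sen value is a group mean without its libraries.

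**Figure D3:**
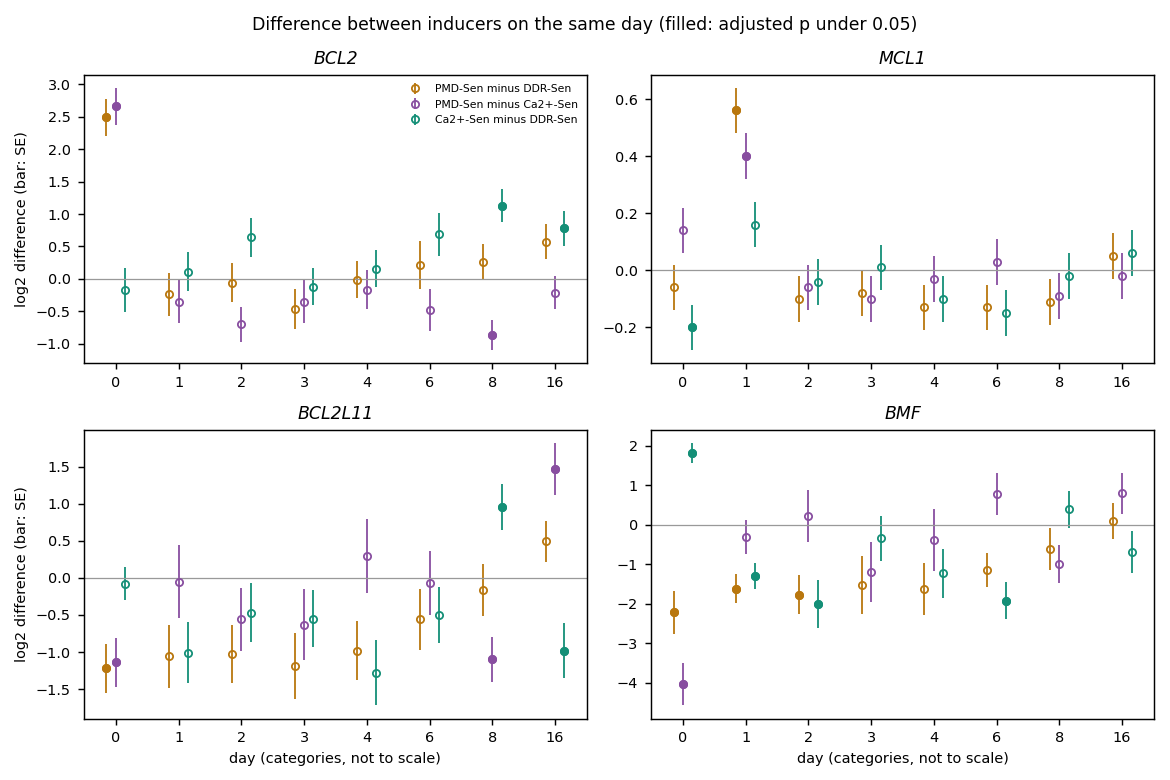
Log2 difference between inducers on the same day (vertical axis, bars show the SE) for BCL2, MCL1, BCL2L11 and BMF by day (horizontal axis, not to scale), with filled points at an adjusted p under 0.05. BCL2 on day 0 stands out at 2.49 and 2.66 for PMD-Sen minus DDR-Sen and minus Ca2+-Sen, and BMF at -4.04 for PMD-Sen minus Ca2+-Sen.

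On day 8 the firmest differences were those between Ca2+-Sen and DDR-Sen in BCL2 and BCL2L1. BCL2 was higher in Ca2+-Sen than in DDR-Sen by 1.13 (SE 0.25, adjusted p = 0.00206), and BCL2L1 was lower by -0.62 (SE 0.11, adjusted p = 0.000372), and both held in every setting. The calls of BCL2L11 and BAK1 in that contrast were each lost in 5 settings. Against PMD-Sen, Ca2+-Sen held more BCL2 and BCL2L11 and less BCL2L1 RNA, with differences of -0.87 (SE 0.23, adjusted p = 0.0075), -1.10 (SE 0.30, adjusted p = 0.00929) and 0.49 (SE 0.11, adjusted p = 0.00297) as PMD-Sen minus Ca2+-Sen, which were lost in 2, 3 and 2 settings. That of BCL2L1 was 0.33, with an adjusted p of 0.138, without the smaller PMD-Sen library. BCL2L11 on day 16 stood at 5.4 and 3.88 CPM in PMD-Sen and 1.87 and 1.42 in Ca2+-Sen, a difference of 1.47 (SE 0.35, adjusted p = 0.0028). It was 1.27, with an adjusted p of 0.0552, without the larger Ca2+-Sen library of that day. The MKI67 levels of Ca2+-Sen given above moved between these days too, and their part in these differences was not tested.

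Between days of the same inducer, 30 of 48 gene and day pairs were called (62.5%), where the mean share of all genes was 50.5%. From day 0 to day 1 the members called were 4 of 8 in PMD-Sen, 6 in Ca2+-Sen and 4 in DDR-Sen, against 53.1%, 61.3% and 24.9% of all genes. From day 0 to day 16 they were 6, 4 and 6, against 58.6%, 59.6% and 45.2%. BCL2 fell by 2.00 (SE 0.30, adjusted p = 1.07e-06) from day 0 to day 1 of PMD-Sen, while MCL1 rose by 0.74 (SE 0.08, adjusted p = 2.06e-09) and BID by 0.79 (SE 0.09, adjusted p = 1.59e-08). The early burst of BMF in Ca2+-Sen was short, with a fall of 2.36 (SE 0.31, adjusted p = 1.27e-07) by day 1 and of 3.58 (SE 0.44, adjusted p = 3.01e-08) by day 16. BCL2L11 fell by 2.00 (SE 0.37, adjusted p = 2.58e-05) by day 1 of Ca2+-Sen. BCL2 rose by 1.96 (SE 0.30, adjusted p = 1.9e-06) from day 0 to day 16 of Ca2+-Sen, and BCL2L1 fell by 0.74 (SE 0.11, adjusted p = 1.62e-06) over the same days of DDR-Sen. These calls held in every setting, though the rise of BCL2 to day 16 of Ca2+-Sen ran from 1.37 to 2.31 over the settings. MKI67 stood at 24.2 and 12.6 CPM on day 0 of PMD-Sen and at 99.3 and 80.5 on day 1. This was a rise of 2.36 (SE 0.38, limma adjusted p = 3.74e-06), and its part in the changes of PMD-Sen was not tested.

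Day 16 was compared with RS, the senescence reached by passaging. The members called were 3 of 8 in PMD-Sen, 4 in Ca2+-Sen and 0 in DDR-Sen, against 23.5%, 31.5% and 5.87% of all genes. In DDR-Sen, 1 member, BMF, had an unadjusted limma p under 0.05, and limma-trend called 0. BCL2 was higher than in RS on day 16 of Ca2+-Sen, at 5.95 and 6.21 against 2.52 and 2.63 CPM, by 1.24 (SE 0.26, adjusted p = 0.000439). In PMD-Sen the difference was 1.02 (SE 0.26, adjusted p = 0.00462), and 0.61 with an adjusted p of 0.233 without the smaller PMD-Sen library. BMF was lower in Ca2+-Sen by -1.78 (SE 0.46, adjusted p = 0.00329), and by -0.94 with an adjusted p of 0.0817 without the larger RS library (0.052 without the larger Ca2+-Sen library). With the spread taken from the compared groups only, 1 of the 7 calls was made. The BCL2 call of Ca2+-Sen was the only 1 of the 7 to hold in every setting. It rests on day 16 of Ca2+-Sen, whose MKI67 level is described above.

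BAX, BBC3 and PMAIP1 complete the core of the family. BBC3, which encodes the p53-driven BH3-only protein PUMA, rose in 12 of 25 groups and fell in none. Of these rises 6 held in every setting, on days 0 and 8 of Ca2+-Sen and days 0, 1, 2 and 16 of DDR-Sen. For day 1 of DDR-Sen only the untreated libraries could be left out. The other 6 were lost without the smaller untreated library, with adjusted p from 0.0503 to 0.31. It stood at 9.93 and 12.6 CPM in untreated cells and at 48.5 and 36.6 on day 0 of DDR-Sen, a rise of 1.89 (SE 0.16, adjusted p = 1.26e-10). PMAIP1, which encodes NOXA, a partner of MCL1, stood at 79.1 and 63.5 CPM in untreated cells and rose to 184 and 181 on day 0 of PMD-Sen, by 1.37 (SE 0.16, adjusted p = 3.45e-08). On day 16 of PMD-Sen it was at 29.2 and 40 CPM, a fall of 1.04 (SE 0.18, adjusted p = 2.84e-05). In all it was called higher in 3 groups and lower in 5, and these 2 calls were the ones that held in every setting. BAX, the partner of BAK1, was called lower in 11 groups and higher in none, by 0.44 (SE 0.07, adjusted p = 1.23e-05) at most on day 0 of PMD-Sen. Of these falls 5 held in every setting, while that on day 2 of DDR-Sen was lost in 8 of 11 settings, and that on day 16 of PMD-Sen, -0.23 as a difference, was -0.08 without the larger library of that day. On day 16 of DDR-Sen the difference of -0.28 was -0.14 without the larger library of that day. DXR thus raised BBC3 most and SDS raised PMAIP1 most among the inducers on day 0, with a difference between them of -1.58 (SE 0.14, adjusted p = 4.94e-11) for BBC3 and 1.33 (SE 0.15, adjusted p = 9.94e-09) for PMAIP1, both as PMD-Sen minus DDR-Sen.

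**Figure D4:**
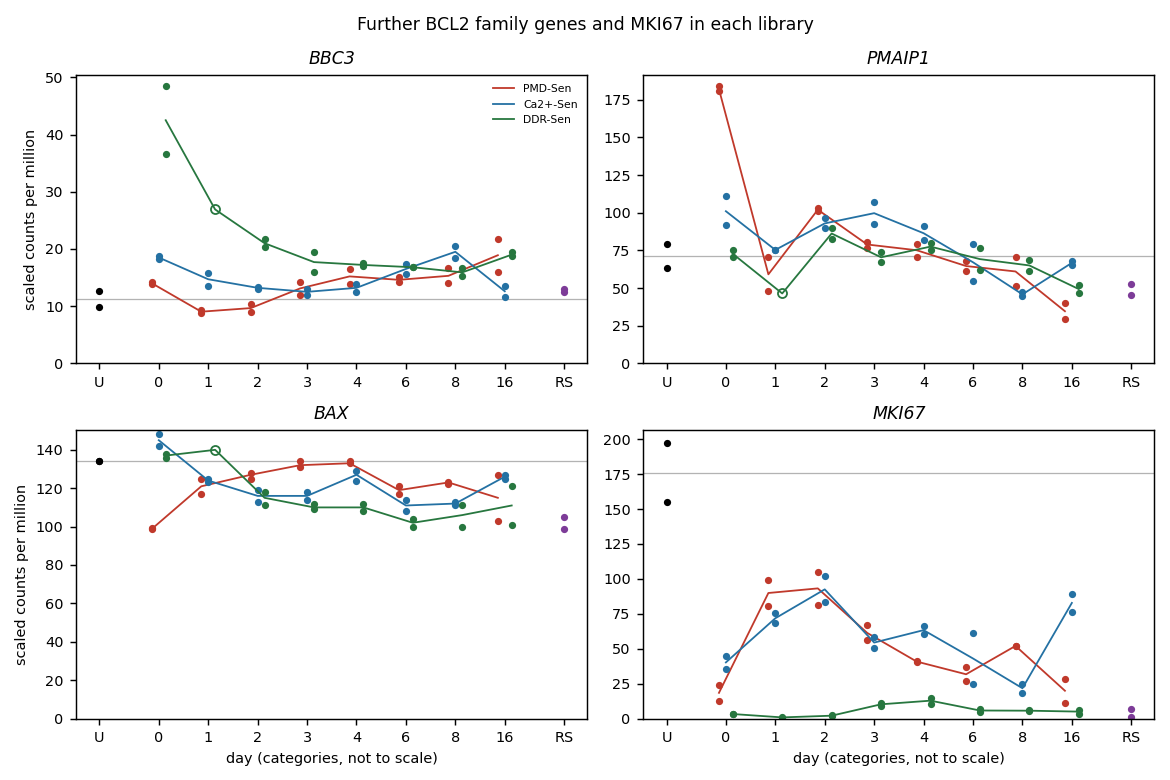
Levels in CPM of BBC3, PMAIP1, BAX and the proliferation marker MKI67 in each library (points) for untreated cells (U), each day of PMD-Sen, Ca2+-Sen and DDR-Sen and RS, with lines through the group means and an open circle where only the group mean is known. BBC3 peaks on day 0 of DDR-Sen at 48.5 and 36.6, PMAIP1 on day 0 of PMD-Sen at 184 and 181, and MKI67 is above all treated groups in untreated cells.

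Around the family, lists of 58 genes of the same pathway were counted, 53 of which were tested. Their counts stand against shares of all genes called, in either direction, of 49.1%, 56.1% and 37.4% on day 0 of PMD-Sen, Ca2+-Sen and DDR-Sen, 38.9%, 12.4% and 42.0% on day 16 and 45.2% in RS. On day 0 of PMD-Sen, 6 of the 8 apoptosome and executioner genes rose and 2 fell, with a median of 0.51 against -0.013 for all genes. CYCS, which encodes cytochrome c, rose by 0.93 (SE 0.11, adjusted p = 2.95e-08) and CASP6, an executioner caspase, fell by 1.10 (SE 0.17, adjusted p = 2.18e-06). On day 0 of Ca2+-Sen 3 rose and 4 fell, and on day 0 of DDR-Sen 1 rose and 2 fell. In RS 1 rose and 5 fell. On day 16, 0 rose and 3 fell in PMD-Sen, 0 and 0 in Ca2+-Sen and 1 and 4 in DDR-Sen.

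Of the 12 genes of the death receptor arm, 8 rose and 0 fell on day 0 of DDR-Sen, with a median of 0.45 and against 37.4% of all genes called. TNFRSF10C, a decoy receptor for the ligand TRAIL, rose by 3.53 (SE 0.23, adjusted p = 2.77e-13) and TNFRSF10A, a signaling receptor for it, by 2.20 (SE 0.17, adjusted p = 1.26e-11). On day 0 of PMD-Sen 4 rose and 5 fell, with TNFRSF10B up by 1.28 (SE 0.08, adjusted p = 2.85e-14). TNFRSF10C differed by -0.96 (SE 0.34, adjusted p = 0.0184) there, opposite to its direction in DDR-Sen, and FAS, a death receptor, by -0.72 (SE 0.09, adjusted p = 4.24e-08). On day 0 of Ca2+-Sen 5 rose and 2 fell. On day 16, 3 rose and 1 fell in PMD-Sen, 0 and 0 in Ca2+-Sen and 6 and 1 in DDR-Sen, and 3 and 0 in RS.

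Of the 5 caspase inhibitors, 2 rose and 2 fell on day 0 of PMD-Sen, 0 and 2 in Ca2+-Sen and 0 and 2 in DDR-Sen. On day 16, 1 rose and 4 fell in PMD-Sen, with a median of -0.90, 1 and 2 in Ca2+-Sen and 0 and 3 in DDR-Sen, and 0 and 2 in RS. BIRC5 and BIRC3 were lower in each of the 7 groups examined. BIRC5, which also acts in cell division, fell by between 1.23 (SE 0.23, adjusted p = 0.000551) on day 16 of Ca2+-Sen and 5.47 (SE 0.46, adjusted p = 4.19e-11) in RS, in groups where MKI67 was lower as well, and the part of arrest in it was not tested. XIAP rose by 0.91 (SE 0.09, adjusted p = 3.7e-10) on day 0 of PMD-Sen. Of the 9 tested among 13 other BCL2 family genes, a list that includes BAX, BBC3 and PMAIP1 from above, 3 rose and 4 fell on day 0 of PMD-Sen, 5 and 1 in Ca2+-Sen, 1 and 3 in DDR-Sen, and 4 and 3 in RS. BNIP3L, a mitophagy receptor, rose by 1.07 (SE 0.08, adjusted p = 2.4e-12) in RS, and BCL2L12 fell by 1.88 (SE 0.13, adjusted p = 6.86e-13) on day 0 of DDR-Sen. Of 8 regulators of family protein stability, 5 rose and 1 fell on day 0 of PMD-Sen, 3 and 1 in Ca2+-Sen, 3 and 1 in DDR-Sen and 4 and 0 in RS. Of 11 transcription factors known to act on family genes, 5 rose and 3 fell, 5 and 3, 2 and 4, and 4 and 2 in the same groups, whose shares of all genes called were 49.1%, 56.1%, 37.4% and 45.2%. On day 16 of PMD-Sen, Ca2+-Sen and DDR-Sen these shares were 38.9%, 12.4% and 42.0%. There the rises and falls were 4 and 3, 2 and 1, and 3 and 3 for the other family genes. They were 2 and 0, 1 and 0, and 3 and 0 for the regulators. For the transcription factors they were 4 and 3, 1 and 1, and 4 and 2. DDIT3, which encodes the stress factor CHOP, rose by 3.71 (SE 0.17, adjusted p = 3.59e-17) and ATF4, which acts upstream of it, by 1.58 (SE 0.13, adjusted p = 3.35e-11) on day 0 of PMD-Sen. E2F1, a driver of the cell cycle, fell by 2.07 (SE 0.16, adjusted p = 7.61e-12) on day 0 of DDR-Sen, and MITF rose by 1.29 (SE 0.12, adjusted p = 7.01e-10) in RS.

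The course over the 26 groups was also compared between genes, as Pearson correlation of group means on the log2 scale, a description of groups that share 1 cell line. MDM4 was most like BCL2 (r = 0.93), SH2B3 and ERRFI1 most like MCL1 (0.85 each) and PRKAR1B and SNRNP27 most like BCL2L1 (0.82 each). MYO15B and ERV3-1 followed BCL2L11 (0.88 each), SAV1 followed BMF (0.86), MOB3A followed BID (0.90), NME1 followed BAK1 (0.87) and AL627171.2 followed BCL2L2 (0.79). These genes were picked as the most alike among all tested genes. MYO15B and AL627171.2 were low, with means of 1.02 and 0.542 CPM. The genes found depended on the measure, since 5 of the 24 most like a member were shared under Spearman correlation. Within the family, BCL2L1 and BAK1 (0.69) and BCL2L11 and BMF (0.64) were most alike, and BCL2 and BCL2L1 most opposed (-0.63).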

How the data were processed

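RNA of WI-38 cells was sequenced in 52 libraries, 2 in each of 26 groups named by the labels. The submitters' processing notes name Trim Galore, HISAT2, HTSeq, featureCounts, DESeq2 and the builds GRCh38 and hg38, without roles or versions. Each of 25 distinct tables compares 1 group with untreated cells, and the authors deposited in it, for each gene, a signal that is the mean of normalized counts over the 4 libraries. The columns of the authors' own comparisons (log2 fold changes, standard errors, statistics, p-values) were not used. Columns of other samples numbered 0, and 1 entry without a gene name was left out.

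Whole counts of each library were recovered from these means. A gene with 1 read in 1 library gives the step of that library, and the 4 counts of a gene then follow from its mean. In the 10 tables printed at full precision, all 59408 genes came out whole and unique. In the other 15 some genes had several solutions, and such a gene kept the group mean with 1 residual degree of freedom fewer (3315 of the genes tested, in at least 1 group). On day 1 of DDR-Sen this touched the members BCL2L1, BCL2L2 and BID and the genes BAX, BBC3 and PMAIP1, and in 15 groups CDKN1A. In 12 simulated tables, 0 of 339343 solved values were wrong. These 12 do not cover every table. That of DDR-Sen day 1 had 16672 genes printed at low precision and 3177 with several solutions. The share of wrong values at such precision was not tested. The libraries of a group can be told apart by size but not tied to a replicate number.

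Genes with a mean of at least 10 counts were fitted with voom of limma 3.58.1 (R 4.3.3), all libraries in 1 fit with a mean per group and scaling by medians of ratios. The moderated test was two-sided, in 58 contrasts, with Benjamini-Hochberg adjustment over all genes tested in each contrast and a threshold of 0.05. On simulated counts for RS against untreated cells, with 200 of 15796 genes changed, 156 genes were called, 4.49% of them falsely, and 72% of genes changed by a log2 of 1 and 90% of those changed by 2 were recovered. With none changed, for day 0 of PMD-Sen against untreated cells, 0 were called. In the data, 45.2% of genes were called for RS against untreated cells. The RS pair had a mean chi-square of 180 per gene, the highest of all pairs. Whether the rates above hold there was not tested. Exon lengths and gene positions are those of GENCODE v29. The remaining steps used Python 3.11.15, NumPy 2.4.6, pandas 2.3.3, SymPy 1.14.0 and matplotlib 3.10.9.

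The 10 genes, the lists and the tests were chosen with earlier results of these data known. The genes named are the 10 members, BAX, BBC3 and PMAIP1, MKI67 and CDKN1A, a part of the list genes that had the 2 largest called rises or the 2 largest falls of their list on day 0, on day 16 or in RS, and the genes most like each member. The alternatives were other scalings and filters, limma-trend, a spread from the compared groups only, a log2 size limit, pseudocounts of 0.5 and 5, Spearman correlation and leaving out each library.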

Additional observations from a re-analysis of the deposited data

Results flagged for a closer look

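BCL2 moved in opposite directions on day 0, which marks it for a closer look. It was 1.10 above untreated cells on the log2 scale in PMD-Sen, with a difference of -1.39 in DDR-Sen and of -1.56 in Ca2+-Sen. The difference between the treated groups does not use the shared untreated libraries, although its SE comes from the fit of all groups. It was 2.49 (SE 0.28, limma adjusted p = 4.39e-09) for PMD-Sen against DDR-Sen and 2.66 (SE 0.29, limma adjusted p = 2.56e-09) for PMD-Sen against Ca2+-Sen. Both PMD-Sen libraries lay above, and all 4 others below, the untreated pair.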

How the results depend on the processing

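Of the 53 calls against untreated cells 19 held in every setting (as defined in the report, with only the libraries of the comparison left out), of the 39 between inducers 21, of the 30 over days 17 and of the 7 against RS 1, and no value changed direction. No paired analysis was possible because the recovered counts cannot be tied to the replicate numbers of the labels. With the spread taken from the compared groups only, the calls of members against RS went from 7 to 1. With a log2 difference of at least 1 required, the median number of genes called in a comparison went from 3482.5 to 591.5 and the calls of pathway genes from 198 to 45. Under Spearman correlation, 5 of the 24 genes most like a member were shared. Leaving out 1 library at a time gave 24 (without the larger untreated library) to 63 (without the smaller RS library) calls of members against untreated cells, 32 to 45 between inducers, 26 to 34 over days, 4 (without the smaller library of PMD-Sen day 16) to 9 (without the smaller RS library) against RS, a median of 2248.5 to 3921 genes called in a comparison and 162 to 203 calls of pathway genes. A group left with 1 library was assumed to vary as the other groups do. Without Ca2+-Sen days 8 and 16, chosen after seeing the order of MKI67 on these days, 47 calls against untreated cells and 28 between inducers were made. The 4 calls over days and the 4 against RS that use day 16 of Ca2+-Sen were not set aside. BCL2L11 could not be tested with a minimum mean of 100 counts. A pseudocount of 5 lowered the rises of BCL2L11. The limma-trend fits, with 2 or 5 counts added as a prior, were both among the settings in which a call could be lost. The deposited log2 differences, planned in case no counts could be recovered, were not needed and were not run. The shallow untreated pair enters 25 comparisons, and BCL2A1 and BIK, with a mean of 3.02 and 2.92 reads in a library, were below the minimum for the test.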
